A study of Mus musculus with 3 samples.

Results

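Transcripts of 8 genes for secreted matrix proteins were followed in mouse Colon26 colon adenocarcinoma cells and in the sublines LuM1 and NM11. The genes were *Thbs1*, *Thbs2*, *Thbs3*, *Sparc*, *Spp1*, *Tnc*, *Postn* and *Fn1*, taken by symbol from the 22911 genes that the array probes could be matched to. They were chosen with earlier results on these same 3 arrays in view. The values by which they were chosen are the scaled signals of the 3 lines, so the levels and ratios below are a description and carry no test.

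Matricellular proteins are secreted into the extracellular matrix but do little to hold it together. They act as adaptors that bind integrins and other surface receptors, proteases and growth factors, and so change how cells attach, spread and move. Thrombospondins, SPARC, osteopontin, tenascin-C and periostin are the classic members, and most are scarce in resting adult tissue and abundant during wound repair and in tumour stroma. Fibronectin, the product of *Fn1*, is by contrast a structural glycoprotein. Cells pull it into fibrils through integrins, and several matricellular proteins bind to those fibrils.

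Colon26 is a tumour line of female BALB/c mice, LuM1 its highly metastatic subline and NM11 its poorly metastatic subline. All were grown in RPMI1640 with 10% serum and antibiotics for 3 days, without other treatment, and 0.1 µg of total RNA of each was labelled with Cy3 and hybridised to 1 single-colour array per line. There were thus 3 arrays and no replicates, so no difference here has a replicate check, and differences between lines cannot be told apart from differences between single cultures. Signals were scaled so that the 75th percentile of every array was 585.1 (in arbitrary units), and ± gives the error that the scanner software assigns to a spot, which is about 10.0% of a bright signal and does not cover differences between cultures. The arrays measured RNA of whole cultures, in which fewer expressing cells and less RNA per cell cannot be told apart. Where a probe was not well above background in one line, the ratio is given as a bound ("at least") set by the dimmest signals that were well above background on that array.

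The 3 arrays were alike in coverage, with between 49.9% and 53.8% of probes well above background and 0 saturated spots. Of 10 epithelial marker genes, 5 were well above background in Colon26 cells, 6 in LuM1 cells and 5 in NM11 cells. *Cdh1*, *Krt18*, *Krt19* and *Vil1* were not well above background in any line, while *Krt8*, *Krt20*, *Cdx2*, *Lgals4* and *Cldn7* were in all. LuM1 lay 11.9-fold below Colon26 cells for *Krt20*, 2.76-fold below them for *Lgals4* and 3.72-fold above them for *Krt8*. The Colon26 signal of *Krt8*, 28.9, was close to the lowest signal well above background there, 26.4. *Cdx2* and *Cldn7* differed less than 2-fold between these lines. NM11 lay below Colon26 cells 4.14-fold for *Krt20*, 2.90-fold for *Lgals4* and 2.65-fold for *Cdx2*, while *Krt8* and *Cldn7* differed less than 2-fold. Of 10 fibroblast markers, 7 were well above background in Colon26 cells and 9 in each subline, and their summed signal was 67233 in Colon26, 56584 in LuM1 and 122001 in NM11 cells. Without *Col1a2*, which carries that order, the sums were 7337, 56534 and 36726. *Dcn*, *Thy1* and *Pdgfra* were higher in LuM1 than in Colon26 cells, by at least 1041-fold, at least 741-fold and 18.2-fold. They were higher in NM11 than in Colon26 cells too, by at least 363-fold, at least 584-fold and 5.90-fold. In LuM1 against Colon26 cells *Col3a1* was 3.98-fold higher, and *Col1a2* and *Col1a1* were 1207-fold and 2.19-fold lower. *Pdgfrb*, *Fap* and *Twist1* differed less than 2-fold between these lines. Of 10 macrophage markers, 5 were seen in each line and *Ptprc*, *Adgre1*, *Fcgr1*, *C1qa* and *Tyrobp* in none. The summed signal was highest in LuM1 cells, at 17013 against 7121 in Colon26 and 6290 in NM11 cells, with *Cd68* 30.5-fold and *Cd14* 3.62-fold above Colon26 cells and 17.5-fold and 4.23-fold above NM11 cells. *Csf1r*, *Itgam* and *C1qb* differed less than 2-fold in every comparison. Of 10 endothelial markers, *Pecam1* and *Eng* were seen in each line and the other 8, *Cdh5*, *Kdr* and *Tek* among them, in none. Their summed signal was 1816 in LuM1 cells against 232 in Colon26 and 199 in NM11 cells, with *Eng* in LuM1 cells 12.9-fold above Colon26 and 22.6-fold above NM11 cells. Without *Eng*, which carries that order, the sums were 96.0 in LuM1, 98.5 in Colon26 and 123 in NM11 cells. Several of these markers thus differ between the lines along with the genes below, and their part in the differences was not tested.

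The 8 genes were covered by 16 probes, of which 10 were well above background in all 3 lines and 2 in none. *Thbs1*, *Thbs2*, *Thbs3*, *Sparc*, *Spp1* and *Fn1* were measured in all 3 lines by at least 1 probe. *Tnc* was well above background only in NM11 cells, and *Postn* only in Colon26 cells. The 2 genes seen on a single array could only pass with a difference, so they are left out of the medians given further on.

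**Figure D1:**
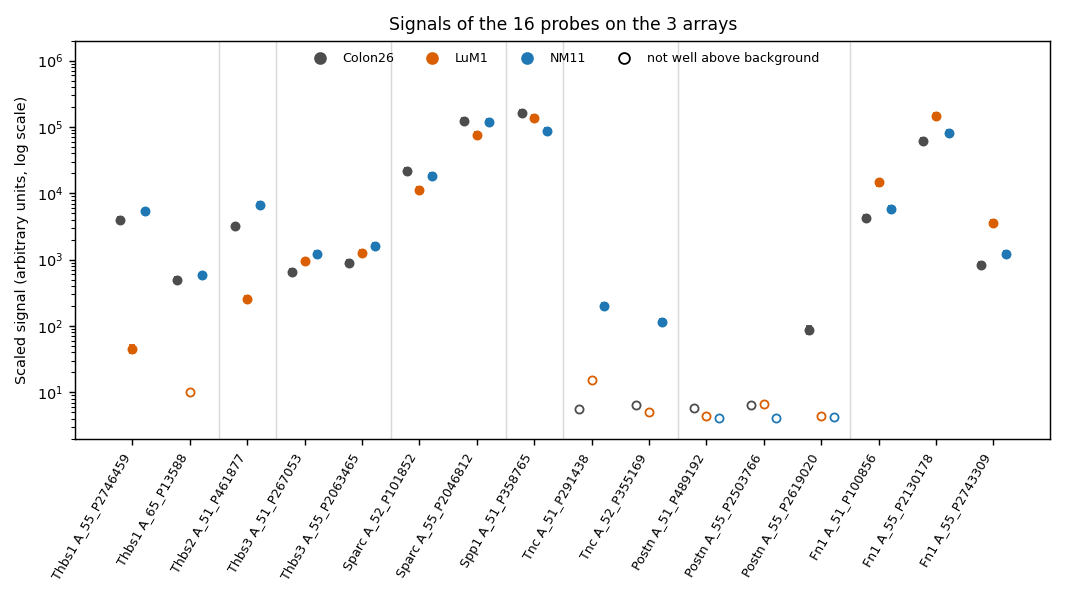
Scaled signal (log axis, arbitrary units) of each of the 16 probes in Colon26 (grey), LuM1 (orange) and NM11 (blue) cells, 1 array each. Filled points carry the scanner error and open points were not well above background. Both *Thbs1* probes and the *Thbs2* probe are lowest in LuM1 cells, and all 3 *Fn1* probes are highest there.

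*Thbs1*, the gene of thrombospondin-1, an inhibitor of angiogenesis and activator of latent TGF-beta, showed the widest spread between the lines among the 6 genes measured in all of them. Its brighter probe, A_55_P2746459, gave 4005 ± 401 in Colon26 cells, 45.6 ± 6.23 in LuM1 cells and 5358 ± 536 in NM11 cells. LuM1 cells stood far below both other lines, which lay close together. The LuM1 signal was 87.9-fold lower than that of Colon26 cells (log2 ratio -6.46, scanner error 0.24) and 118-fold lower than that of NM11 cells (log2 ratio -6.88, scanner error 0.24). A second probe, A_65_P13588, gave 496 ± 49.9 in Colon26, 581 ± 58.2 in NM11 and 10.0 in LuM1 cells, the last not well above background. By that probe LuM1 cells were at least 24.6-fold below Colon26 cells and at least 28.8-fold below NM11 cells. Among all genes measured on both arrays, *Thbs1* was the 7th lowest of 12394 for LuM1 over Colon26 cells and the 5th lowest of 12848 for LuM1 over NM11 cells. The difference between NM11 and Colon26 cells was small, with log2 ratios of 0.42 and 0.23 at the brighter and the dimmer probe against a scanner error of 0.20 at each, and turned to -0.07 at the brighter one when the arrays were scaled to *Hprt*.

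*Thbs2* encodes thrombospondin-2, the closest relative of thrombospondin-1, which shares its trimeric build and its antiangiogenic type 1 repeats. Its single probe gave 3176 ± 318 in Colon26 cells, 256 ± 26.1 in LuM1 cells and 6687 ± 669 in NM11 cells. The order was the same as for *Thbs1*, with LuM1 cells lowest and NM11 cells highest, and each step was larger than the scanner error. LuM1 cells were 12.4-fold below Colon26 cells (log2 ratio -3.63, scanner error 0.21) and 26.2-fold below NM11 cells (log2 ratio -4.71, scanner error 0.21). NM11 cells were 2.11-fold above Colon26 cells (log2 ratio 1.07), and this ratio was under 2-fold with no scaling, with *Hprt* and with spike-in controls. *Thbs2* ranked 56th lowest of 12394 genes for LuM1 over Colon26 cells and 24th lowest of 12848 for LuM1 over NM11 cells.

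*Thbs3* encodes thrombospondin-3, a pentameric thrombospondin that lacks the antiangiogenic repeats. One of its 2 probes, A_55_P2063465, gave 898 ± 90.0 in Colon26 cells, 1268 ± 127 in LuM1 cells and 1631 ± 163 in NM11 cells. The other, A_51_P267053, gave 663 ± 66.5, 941 ± 94.2 and 1232 ± 123 in the same order. Both probes placed Colon26 cells lowest and NM11 cells highest, so *Thbs3* did not share the low LuM1 signal of *Thbs1* and *Thbs2*. LuM1 cells were above Colon26 cells by log2 ratios of 0.50 and 0.51. They were below NM11 cells by log2 ratios of -0.36 and -0.39, a direction that turned with scaling to *Hprt* and in the authors' processed values.

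The promoters of *Thbs2* and *Thbs3* are shown because these relatives differed in their order over the lines. In the RefSeq table for GRCm38.p6, 6 of the 8 genes matched, with 9 promoters in all. Each line below holds the 150 bases before the start site, 5′ to 3′ on the strand of the gene, with matches to a searched motif in capitals.
Thbs2, chr17:14694263-14694412, minus strand: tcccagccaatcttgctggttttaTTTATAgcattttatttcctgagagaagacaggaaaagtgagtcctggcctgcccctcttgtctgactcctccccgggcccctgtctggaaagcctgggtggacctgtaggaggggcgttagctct
Thbs3, chr3:89215030-89215179, plus strand: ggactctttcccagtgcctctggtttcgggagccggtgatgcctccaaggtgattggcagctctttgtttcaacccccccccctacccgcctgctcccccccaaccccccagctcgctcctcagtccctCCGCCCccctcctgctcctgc
The capitals in *Thbs2* are TATAAA, the core of the TATA box, read on the opposite strand and beginning 126 bases before the start site. Those in *Thbs3* are GGGCGG, the core of the GC box bound by Sp1, also on the opposite strand, 21 bases before the start site. Both strands of 250 bases before and 50 after each start site were searched for these motifs, for the AP-1 motif TGANTCA and for the TEAD motif CATTCC, and no motif overlapped another. Of all 32851 promoters in the table, 13.6% held TATAAA, 35.7% GGGCGG, 7.81% TGANTCA and 14.7% CATTCC. None of the 9 promoters held TGANTCA or CATTCC.

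*Sparc* encodes SPARC (osteonectin), a collagen-binding protein that weakens cell attachment to the matrix. Its brighter probe, A_55_P2046812, gave 124748 ± 12475 in Colon26 cells, 76684 ± 7668 in LuM1 cells and 119890 ± 11989 in NM11 cells. The other, A_52_P101852, gave 21795 ± 2179, 11382 ± 1138 and 18351 ± 1835. LuM1 cells were lowest at both probes, with log2 ratios of -0.70 and -0.94 to Colon26 cells and of -0.64 and -0.69 to NM11 cells, each larger than the scanner error of 0.20 and none reaching 2-fold. At the brighter probe the ratio to NM11 cells shrank to -0.06 with scaling to *Hprt*, and that to Colon26 cells to -0.25 under quantile normalization. At the brighter probe NM11 and Colon26 cells differed by less than the scanner error (log2 ratio -0.06), and its sign turned under quantile normalization.

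*Spp1*, the gene of osteopontin, a phosphorylated ligand of integrins and CD44, was bright in all 3 lines. Its probe gave 163622 ± 16362 in Colon26 cells, 137353 ± 13735 in LuM1 cells and 87300 ± 8730 in NM11 cells. NM11 cells were lowest, at 0.534 times the Colon26 signal (log2 ratio -0.91), and LuM1 cells were 1.57-fold above NM11 cells (log2 ratio 0.65). Both differences exceeded the scanner error of 0.20 and neither reached 2-fold. The log2 ratio of LuM1 to Colon26 cells, -0.25, was just past the scanner error and changed sign in the authors' processed values and under quantile normalization.

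*Tnc* encodes tenascin-C, a hexameric protein of embryonic and tumour stroma that loosens attachment to fibronectin. Of its 2 probes, A_51_P291438 gave 5.59 in Colon26 cells, 15.5 in LuM1 cells and 201 ± 20.5 in NM11 cells, and A_52_P355169 gave 6.54, 5.13 and 114 ± 12.4. Only the NM11 signals were well above background, at both probes, though the LuM1 signals of both probes passed the looser flag for signals significantly above background. NM11 cells were at least 7.62-fold above Colon26 cells and at least 9.99-fold above LuM1 cells by the brighter probe, and at least 4.33-fold and at least 5.68-fold by the dimmer. With normexp background correction the log2 bounds of the brighter probe shrank from 2.93 to 1.76 over Colon26 cells and, for LuM1 over NM11 cells, from -3.32 to -1.74. LuM1 and Colon26 cells have no ratio to each other for *Tnc*, since neither was well above background. Around the *Tnc* spots on the NM11 array, 2.91% and 2.55% of 275 neighbouring spots were seen on that array alone, against 2.14% of the whole array.

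*Postn* encodes periostin, a ligand of alpha-v integrins that also helps collagen crosslinking. One of its 3 probes, A_55_P2619020, gave 88.5 ± 11.8 in Colon26 cells, 4.41 in LuM1 cells and 4.19 in NM11 cells, and only the first was well above background. By this probe LuM1 cells were at least 4.40-fold and NM11 cells at least 4.52-fold below Colon26 cells. The other 2 probes were not well above background in any line, so the Colon26 signal stands on a single spot of the gene. Of 275 spots around it, 5.09% were seen on the Colon26 array alone, against 1.95% of the whole array, and the part of the spot's place on the array in this signal was not tested.

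The promoters of *Tnc* and *Postn*, each seen in a single line, are shown in the same way as those of the thrombospondins.
Tnc, chr4:64047016-64047165, minus strand: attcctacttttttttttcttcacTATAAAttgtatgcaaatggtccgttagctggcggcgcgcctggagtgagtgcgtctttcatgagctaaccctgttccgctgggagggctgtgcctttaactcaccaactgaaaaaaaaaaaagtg
Postn, chr3:54360957-54361106, plus strand: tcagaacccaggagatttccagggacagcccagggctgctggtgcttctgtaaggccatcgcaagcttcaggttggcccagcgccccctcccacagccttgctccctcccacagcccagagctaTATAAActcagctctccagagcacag
The capitals mark TATAAA, which begins 126 bases before the start site of *Tnc* and 26 bases before that of *Postn*. The *Tnc* promoter also held GGGCGG 167 bases before this start site, outside the bases printed. A second listed start site of each gene was searched as well. That of *Postn* had no match, and that of *Tnc* lies close by and shared both matches. Among the remaining genes, 1 *Spp1* promoter held TATAAA 211 bases before its start site, and the *Sparc* promoter held none of the motifs.

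*Fn1*, the gene of fibronectin, was highest in LuM1 cells at all 3 of its probes. The brightest, A_55_P2130178, gave 61263 ± 6126 in Colon26 cells, 146728 ± 14673 in LuM1 cells and 81606 ± 8161 in NM11 cells. A_51_P100856 gave 4241 ± 424, 14581 ± 1458 and 5885 ± 589. A_55_P2743309, matched to another *Fn1* transcript record, gave 844 ± 84.6, 3581 ± 358 and 1235 ± 124. Colon26 cells were lowest, NM11 cells intermediate and LuM1 cells highest at every probe, the reverse of the LuM1 position for *Thbs1*, *Thbs2* and *Sparc*. LuM1 cells were 2.40-fold above Colon26 cells by the brightest probe (log2 ratio 1.26) and 3.44-fold and 4.24-fold by the others. They were 1.80-fold above NM11 cells by the brightest probe (log2 ratio 0.85) and 2.48-fold and 2.90-fold by the others, so that the 2-fold line was crossed at 2 of 3 probes. The difference between NM11 and Colon26 cells was smaller, with a log2 ratio of 0.41 that turned to -0.07 with scaling to *Hprt*.

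**Figure D2:**
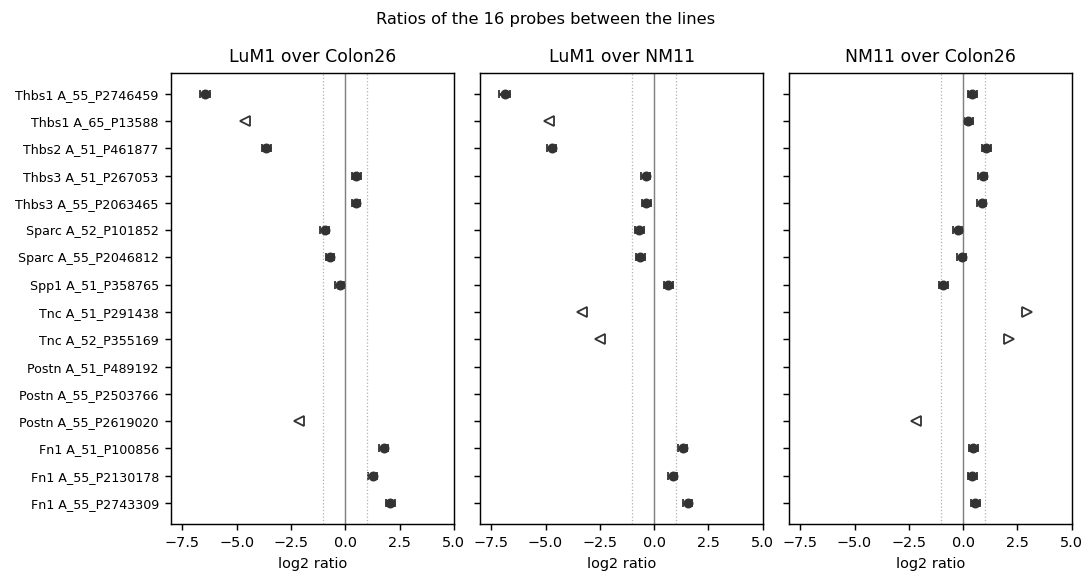
Log2 ratio of each probe in the 3 comparisons, with the scanner error as bars. Open triangles are bounds, pointing to the side on which the ratio lies, and dotted lines mark 2-fold. *Thbs1* and *Thbs2* lie far to the left in both LuM1 comparisons and to the right of 0 for NM11 over Colon26 cells, *Thbs2* just past the 2-fold line, and *Fn1* lies to the right in both LuM1 comparisons.

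Beside the array as a whole, the 8 genes divided as follows at a line of 2-fold. *Fn1* was the 1 gene whose LuM1 signal was at least 2-fold that of Colon26 cells, where 13.1% of all genes with a ratio or bound passed this line. *Thbs1*, *Thbs2* and *Postn*, 3 of the 7 with a ratio or bound, were at least 2-fold lower, where 11.8% of all genes passed. Between LuM1 and NM11 cells, 0 of 7 passed in favour of LuM1 cells (11.1% of all genes) and 3 in favour of NM11 cells, *Thbs1*, *Thbs2* and *Tnc* (8.50% of all genes). NM11 exceeded Colon26 cells at least 2-fold for *Thbs2* and *Tnc*, 2 of 8 (8.33% of all genes), and was lower for *Postn* alone (7.90% of all genes). The rule by which the genes were chosen used these comparisons, so nothing is read from the counts. The median log2 ratio over the 6 genes measured in all lines was -0.48 for LuM1 over Colon26, -0.50 for LuM1 over NM11 and 0.42 for NM11 over Colon26 cells, beside -0.13, -0.11 and -0.02 over all genes measured on both arrays.

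Set against both other lines at once, *Thbs1* and *Thbs2* were at least 2-fold lower in LuM1 cells (4.34% of all genes were) and 0 of the 8 were higher (7.90% of all genes were). *Fn1* missed this at its brightest probe, by its 1.80-fold over NM11 cells, and passed against both lines at its other probes. These shares are over genes with a ratio or bound to both other lines, and for LuM1 cells *Tnc* lacks that to Colon26 and *Postn* that to NM11 cells. *Thbs2* and *Tnc* were at least 2-fold higher in NM11 cells than in both others (2.85% of all genes) and none of the 8 was lower there (2.30%). *Postn* was at least 2-fold higher in Colon26 cells than in both sublines (4.91%) and none of the 8 was lower there (4.98%).

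The genes whose ratios lay closest to those of *Thbs1* and *Thbs2* were sought among 12245 genes measured in all 3 lines, by Euclidean distance in the log2 ratios of LuM1 and of NM11 to Colon26 cells. For *Thbs1* these were *Lgals7*, which encodes galectin-7, at a distance of 0.26, *Fgf7*, a growth factor for epithelial cells, at 0.53 and *Car6*, a secreted carbonic anhydrase, at 0.66. *Lgals7* had a signal of 10243 in Colon26, 104 in LuM1 and 11898 in NM11 cells. For *Thbs2* they were *Avil*, an actin-binding protein gene, at 0.53, the olfactory receptor gene *Olfr978* at 0.61 and *Slit3*, a secreted guidance cue, at 0.71. In LuM1 cells *Avil* and *Olfr978*, at 27.2 and 24.8, were near the lowest signal well above background there, 20.1. Within a distance of 0.5 there was 1 gene for *Thbs1* and none for *Thbs2*, beside 474 for *Fn1*, 902 for *Thbs3*, 910 for *Spp1* and 3059 for *Sparc*. Likeness over 3 arrays rests on 2 ratios that share the Colon26 array.

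Other matricellular genes and their kin, a list of 29, were seen in part. For 11 of them, no line was well above background. Against each of the other lines, 6 were at least 2-fold lower in LuM1 cells (4.34% of all genes), namely *Ccn1*, *Ccn3*, *Ccn4*, *Fstl1*, *Fbln5* and *Mgp*. *Ccn1*, a CCN family protein that binds integrins, had a signal of 6641 in Colon26, 1621 in LuM1 and 7161 in NM11 cells and was 4.10-fold and 4.42-fold lower in LuM1 cells. *Mgp*, the matrix Gla protein that inhibits calcification, had 4500, 160 and 8097 in these lines and was 28.1-fold and 50.5-fold lower in LuM1 cells. Like *Thbs1*, both were thus low in LuM1 and high in the other lines.

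*Fbln5*, encoding the elastic fibre protein fibulin-5, was well above background at 5604 in Colon26 cells and at 5206 in NM11 cells but not in LuM1 cells, which lay at least 278-fold below the first and at least 259-fold below the second. *Ccn4* had 471 in Colon26 and 1086 in NM11 cells and LuM1 cells lay at least 23.4-fold and at least 53.9-fold below them, by 1 of its 2 probes. *Ccn3* had 310 in Colon26, 49.0 in LuM1 and 851 in NM11 cells. NM11 cells exceeded both other lines at least 2-fold for *Ccn3* and *Ccn4*, as for *Thbs2*. *Fstl1*, a secreted relative of SPARC, was 2.70-fold and 2.92-fold lower in LuM1 cells by its brighter probe, and its other probe also passed 2-fold.

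In the other direction, LuM1 cells exceeded both other lines at least 2-fold for 4 genes of this list (7.90% of all genes). *Ecm1*, which encodes a secreted matrix glycoprotein, had a signal of 1985 in Colon26, 21729 in LuM1 and 7246 in NM11 cells. *Tnxb*, the tenascin-X gene, had 51.3, 323 and 33.4, the opposite of *Tnc*, which was seen in NM11 cells. *Fbln1* was 5.19-fold above Colon26 and 2.60-fold above NM11 cells, and *Sparcl1*, the closest relative of *Sparc*, exceeded them by at least 2.01-fold and at least 2.71-fold, with log2 bounds of 0.56 and 0.62 under normexp. *Ccn5* was highest in NM11 cells, at 873, which was 13.9-fold above LuM1 cells and at least 33.1-fold above Colon26 cells. *Tgfbi*, the gene of a TGF-beta-induced adhesion protein related to periostin, gave 37.9 in Colon26 cells against 423 in LuM1 and 491 in NM11 cells, and was 11.2-fold and 13.0-fold higher in the sublines.

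Over the list, LuM1 exceeded Colon26 cells at least 2-fold for 7 genes and lay below for 6, among 16 with a ratio or bound, where 13.1% and 11.8% of all genes did so. Against NM11 cells these counts were 4 and 7, among 18 (11.1% and 8.50% of all genes). In NM11 against Colon26 cells, 5 of 16 were higher and 0 lower (8.33% and 7.90%). The median log2 ratio of those measured was 0.97 for LuM1 over Colon26 cells, a value that turned to -0.37 without a filter on dim probes, and -0.06 and 0.48 for LuM1 over NM11 and NM11 over Colon26 cells. The last turned to -0.01 with scaling to *Hprt*, and that for LuM1 over NM11 cells changed sign under 5 of the alternatives.

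**Figure D3:**
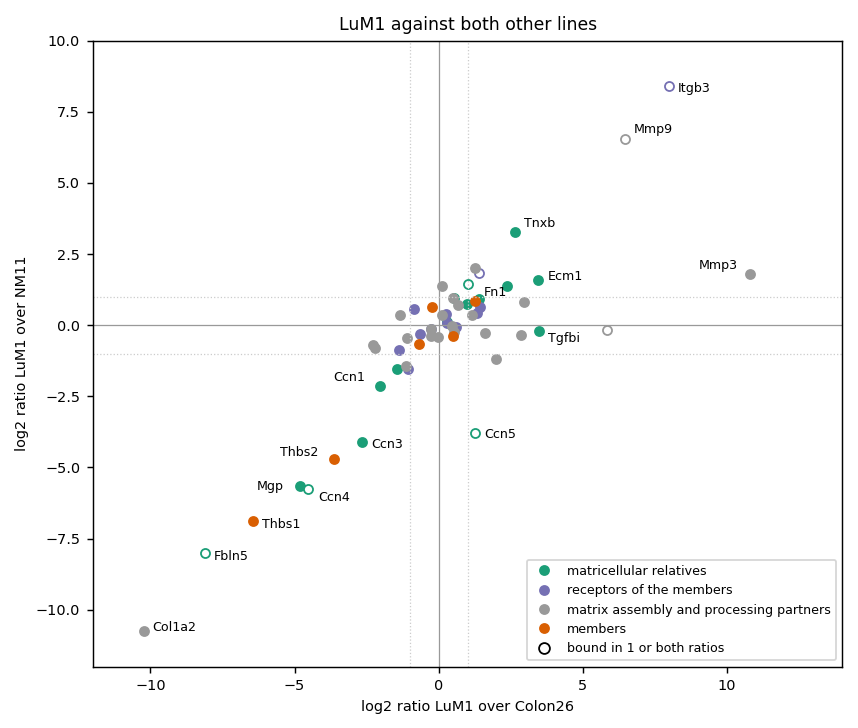
Log2 ratio of LuM1 to Colon26 cells (horizontal) and to NM11 cells (vertical) for the 6 genes measured in all lines (orange), matricellular relatives (green), receptors (purple) and assembly and processing partners (grey), with open points for bounds and dotted lines at 2-fold. Both axes share the LuM1 array. *Thbs1*, *Thbs2*, *Ccn3*, *Ccn4*, *Mgp*, *Fbln5* and *Col1a2* lie at the lower left, and *Itgb3* and *Mmp9* at the upper right.

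Receptors that bind the 8 proteins made up the second list. Of 20 receptor genes, 5 were not well above background in any line. In LuM1 cells, 2 were at least 2-fold higher than in both other lines (7.90% of all genes) and 1 was lower (4.34%). *Itgb3*, whose product pairs with the alpha-v chain into a receptor for osteopontin, fibronectin and periostin, had a signal of 6625 in LuM1 cells and was not well above background in the others. LuM1 cells were at least 251-fold above Colon26 cells and at least 339-fold above NM11 cells, and both of its probes passed 2-fold. *Cd44*, a receptor for hyaluronan and osteopontin, had 6953 in Colon26, 3317 in LuM1 and 9723 in NM11 cells, 2.10-fold and 2.93-fold lower in LuM1 cells, with 2 of 3 probes past 2-fold. The difference to Colon26 cells was under 2-fold with no scaling, in the authors' processed values, with *Hprt* and under quantile normalization, and that to NM11 cells with *Hprt*. *Cacna2d1*, a calcium channel subunit that binds thrombospondins, was seen in LuM1 cells alone, at least 2.61-fold above Colon26 and at least 3.52-fold above NM11 cells, by 1 of 3 probes, and under 2-fold with normexp. For LuM1 over Colon26 cells, 4 of 14 receptors passed 2-fold upward and 2 downward, beside 13.1% and 11.8% of all genes. For LuM1 over NM11 cells 2 of 13 passed upward and 1 downward (11.1% and 8.50%), and for NM11 over Colon26 cells 0 of 12 upward and 1 downward (8.33% and 7.90%). The median log2 ratios of this list were -0.01, 0.01 and 0.05, all near 0, and each changed sign under at least 1 alternative.

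Partners that assemble, crosslink or cut these proteins were the third list, of 27 genes, 3 of them not well above background in any line. The genes of type I collagen, which fibronectin and SPARC bind, were lower in LuM1 than in both other lines, *Col1a2* far more so than *Col1a1*. *Tgm2*, *Mmp3* and *Mmp9* were higher there. *Col1a2*, by its single probe, had a signal of 59896 in Colon26, 49.6 in LuM1 and 85275 in NM11 cells, 1207-fold and 1719-fold lower in LuM1 cells. *Col1a1* still had 2247 in LuM1 cells, 2.19-fold below Colon26 and 2.69-fold below NM11 cells. The first of these was under 2-fold in the authors' processed values and with quantile normalization, and the second with *Hprt*. *Tgm2*, a transglutaminase that crosslinks fibronectin, was 2.41-fold and 3.98-fold higher in LuM1 cells. *Mmp9*, a gelatinase, was at least 87.5-fold above Colon26 and 93.7-fold above NM11 cells. *Mmp3*, a stromelysin that cuts fibronectin and osteopontin, had 58.6 in Colon26, 103171 in LuM1 and 29944 in NM11 cells, and so was high in both sublines and highest in LuM1 cells.

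Latent TGF-beta binding proteins were also in this list, with *Fbn1*, the fibrillin-1 gene. Some of these binding proteins tether the growth factor that thrombospondin-1 can activate to fibronectin and fibrillin. *Fbn1*, *Ltbp3* and *Ltbp4* were at least 2-fold higher in Colon26 cells than in both sublines (4.91% of all genes were), *Fbn1* by 4.85-fold over LuM1 and 2.98-fold over NM11 cells. *Ltbp2*, *Col3a1*, *Col6a1*, *Plau*, *Mmp2* and *Mmp3* were at least 2-fold lower in Colon26 cells than in both sublines (4.98% of all genes were). *Ltbp2* was 7.30-fold higher in LuM1 and 9.32-fold higher in NM11 cells than in Colon26 cells. *Plod2*, a collagen lysyl hydroxylase, was lowest in NM11 cells, and *Col3a1* was highest there.

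Over these partners, 9 of 24 passed 2-fold upward and 6 downward for LuM1 over Colon26 cells, beside 13.1% and 11.8% of all genes. For LuM1 over NM11 cells 4 of 24 passed upward and 3 downward (11.1% and 8.50%), and for NM11 over Colon26 cells 6 of 23 upward and 4 downward (8.33% and 7.90%). The median log2 ratios were 0.29, -0.15 and 0.21. The first kept its sign under all alternatives run, and the other two turned under 4 and 2 of them.

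**Figure D4:**
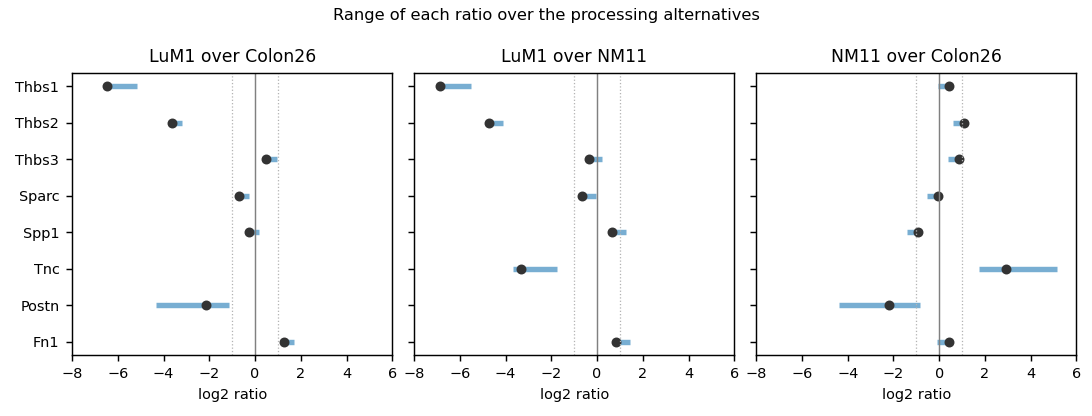
Log2 ratio of each gene as reported (black point) and its range over the processing alternatives (blue bar) in the 3 comparisons, with dotted lines at 2-fold. *Tnc* and *Postn* have bounds in place of ratios and no entry where neither line was well above background. *Thbs1* and *Thbs2* stay below -3 in both LuM1 comparisons, and *Fn1* stays above 0 in both.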

How the data were processed

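Gene expression was measured in 3 cell lines, with 1 SurePrint G3 mouse array each and no replicates. The authors deposited spot intensity values from Agilent Feature Extraction 11.5.1.1, which had subtracted background within each array without scaling between arrays, and flags with a score of 0 or 1 for outlier, saturated and detected spots. Their processed table holds the same intensity times 1 factor per array, by a method not given in the sources used here.

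Outlier and control spots were left out, spots of a probe were averaged, and signals were brought to a common 75th percentile over non-control spots. RefSeq accessions of GRCm38.p6 named 32994 (58.3%) of 56605 probes, giving 22911 genes. Probe coordinates belong to an older assembly and are not printed, and which exons the probes lie in was not analysed here. A gene was represented by its probe of highest mean log2 signal. Dim probes entered as bounds, against the higher of the probe's own signal and the lowest signal well above background on that array.

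The members, gene lists and alternatives were chosen with earlier results of these data known. Named were every member, each list gene at least 2-fold higher or lower in 1 line than in both others, and the 3 genes nearest to each member with a log2 ratio of at least 2 in size. No test was run with 1 array per line, and precision is limited by that number. The 12 alternatives covered scaling, background correction, detection, the choice of probe and the fold threshold. The calling of folds was tested on simulated data with changes set in bright genes. Those genes stayed above the detection line on every simulated array, so the calling of changes as bounds was not tested. Python 3.11.15 (numpy 2.4.6, pandas 2.3.3, matplotlib 3.10.9) and R 4.3.3 with limma 3.58.1 were used.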

Additional observations from a re-analysis of the deposited data

Results flagged for a closer look

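Among the 8 genes and those of the lists above, 3 had the sublines on opposite sides of the parental line. For these, LuM1 cells lay at least 2-fold below Colon26 cells and NM11 cells at least 2-fold above them. The share of all genes with this order is not given here. The difference was not tested, since each line has 1 array. For *Thbs2* the log2 ratio to Colon26 cells was -3.63 in LuM1 and 1.07 in NM11 cells, and that of LuM1 to NM11 cells was -4.71. For *Ccn3* these values were -2.66, 1.46 and -4.12. For *Ccn4* they were at most -4.55, 1.20 and at most -5.75, by the brighter of its 2 probes. The NM11 side was under 2-fold in some alternatives, for *Thbs2* with no scaling, *Hprt* (0.59) and E1A spike-in controls (0.75), for *Ccn3* with *Hprt* (0.97), and for *Ccn4* with *Hprt* (0.72), E1A (0.88) and the mean over its probes (0.74).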

How the results depend on the processing

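Counts were recomputed under 12 alternatives, and ratios and list medians under 11, to which the fold threshold does not apply, except that *Postn* had no ratio with the probe brightest in LuM1 cells. Naming probes by a gene symbol column was planned and not run, since the scanner files hold no such column, and normexp was run on the median brightness with an offset of 50. No paired analysis was possible because each line has 1 array. Of 198 recomputed ratios of the 6 genes measured in all lines, 148 moved by no more than the scanner error and 50 by more. The 148 include ratios that could not move. The detection alternatives leave genes well above background in all lines unchanged, and the probe brightest in LuM1 cells was the reported probe of each. Taking the mean over probes cannot move *Thbs2* and *Spp1*, each with a single probe. Bounds have no scanner error. None of the reported ratios or bounds of at least 2-fold changed sign. *Thbs1* ran from -6.56 to -5.17 (log2) for LuM1 over Colon26 and from -6.95 to -5.51 for LuM1 over NM11 cells, *Thbs2* from -3.64 to -3.19 and from -4.71 to -4.12, and *Fn1* from 1.26 to 1.71 and from 0.85 to 1.44. *Tnc* ran from -3.70 to -1.74 for LuM1 over NM11 and from 1.76 to 5.17 for NM11 over Colon26 cells.

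Of the 8 genes, the number lying at least 2-fold below NM11 in LuM1 cells was 3 throughout, and the number lower than in Colon26 cells was 3, or 2 with the probe brightest in LuM1 cells, which loses *Postn*. The number higher in LuM1 than in Colon26 cells, 1, became 2 with signals significantly above background and 2 with no filter on dim probes, each adding *Tnc* (log2 ratio 1.47 at face value), and 0 at a 4-fold threshold. The number higher in LuM1 than in NM11 cells, 0, became 1 with no scaling, E1A spike-in controls, quantile normalization or the mean over the probes (*Fn1*), and 2 with *Hprt* or the authors' processed values (*Spp1* and *Fn1*). The number higher in NM11 than in Colon26 cells, 2, became 1 with no scaling, *Hprt*, E1A or a 4-fold threshold, each losing *Thbs2*. The number lower, 1, became 2 with *Hprt* or E1A (*Spp1*) and 0 with normexp or the probe brightest in LuM1 cells (*Postn*). Under normexp the *Postn* log2 ratios were -1.12 for LuM1 and -0.85 for NM11 over Colon26 cells.

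Besides those given above, *Fstl1* against Colon26 (authors' processed values) and NM11 cells (*Hprt*), *Fbln1* against NM11 cells and *Ccn5* in LuM1 against Colon26 cells (normexp), *Sparcl1* in LuM1 against Colon26 cells (also quantile normalization), *Ltbp3* in LuM1 against Colon26 cells (authors' processed values) and *Col3a1* in LuM1 against NM11 cells (*Hprt*, E1A, authors' processed values) fell short of 2-fold.

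The scalings moved all genes together. The median shifted by 0.59 for LuM1 over NM11 and -0.49 for NM11 over Colon26 cells with *Hprt*, by 0.33 and -0.33 with E1A, by 0.45 for LuM1 over Colon26 and 0.41 for LuM1 over NM11 cells in the authors' processed values, and by 0.11 and 0.18 with no scaling. Over all genes, those past 2-fold upward for LuM1 over Colon26 cells, 1855, ran from 848 to 3037 and those downward, 1679, from 538 to 2716. Against NM11 cells the counts of 1599 and 1225 ran from 657 to 3581 and from 352 to 1843, and between NM11 and Colon26 cells those of 1152 and 1092 from 469 to 1810 and from 394 to 2727.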
